A study of Mus musculus with 4 samples.

Results

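The SoxC genes Sox4, Sox11 and Sox12 encode the group C transcription factors of the Sox family, which bind DNA through a high mobility group domain. They were taken by name, through their Ensembl gene identifiers, and make up 3 of the 78334 genes in the counts table. Sox4 and Sox11 passed the filter on low counts and were among the 11427 genes tested; Sox12 did not pass, and its counts are given without a test.

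Sox4 and Sox11 are expressed in neural progenitors and newborn neurons, where they overlap in function and switch on genes of neuronal differentiation. In the developing mouse retina they are needed for the formation of ganglion cells, the neurons whose axons make up the optic nerve. In adult mice, forced expression of Sox11 lets some injured ganglion cells regrow axons and is harmful to others, while Sox12 activates transcription more weakly than the other members.

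The cells were labelled as retinal ganglion cells, came from wild-type mice of both sexes and were collected 2 weeks after an optic nerve crush. Eyes of the anti-miR132-3p group carried an adeno-associated virus of serotype 2 with an shRNA directed against the microRNA miR-132-3p, and eyes of the scramble group carried the same kind of virus with a scrambled shRNA. Both vectors also expressed the red reporter mCherry, and both groups had the crush, so no uninjured or uninjected eye serves as a baseline here. Virus was given at 8 weeks of age, 2 weeks before the crush, and each condition pooled 10 retinas, from which cells were panned for the surface antigen Thy1, sorted for mCherry at about 5000 cells per library, and used for polyadenylated RNA sequencing. The labels put transduction at about 40% of ganglion cells, so the sorted cells are the transduced share of those that remained.

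Each group had 2 libraries, with 1732416 and 1731199 counts for anti-miR132-3p and 1845090 and 1846637 counts for scramble. The libraries of a group differed by no more than sampling noise, with a chi-square per degree of freedom of 1.00 for the anti-miR132-3p pair and 1.02 for the scramble pair, against 4.01 to 4.03 for pairs across the groups. Each pair was therefore counted as 1 sample, which leaves 1 sample per group and no replicate check on any difference. Intervals below are exact 95% intervals for counting error only, and an adjusted p-value sets the reads of 2 pairs of libraries against each other and says nothing of how eyes vary. In the counts table, the scramble columns are named for mCherry and were matched to that group by exclusion, so every direction rests on this match.

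Markers of ganglion cells were present in all 4 libraries, with 0 of the 14 listed markers at 0. Their summed level was 2698 to 2770 CPM (counts scaled to a common library size by the TMM method) with anti-miR132-3p and 2755 to 2811 CPM with scramble, and of the 13 tested 3 were called higher and 3 lower. Calls are those of edgeR's quasi-likelihood test, which called 13.5% of all tested genes higher and 10.4% lower. Amacrine markers summed to 2780 to 2858 CPM with anti-miR132-3p and 1576 to 1610 CPM with scramble. Of the 10 listed, 6 were tested and 5 called higher, while Gad1, Slc32a1 and Tfap2b were listed at 0. Müller glia markers summed to 2270 to 2289 CPM with anti-miR132-3p and 1762 to 1768 CPM with scramble. Of the 10 listed, 6 were tested and 1 was called higher, and none was at 0. Dkk3 alone was at 1618 CPM with anti-miR132-3p and 1096 CPM with scramble, so the gap between the Müller glia sums lay in this gene. Rod and cone markers summed to 15.1 to 22.6 CPM with anti-miR132-3p and 104 to 106 CPM with scramble. Of the 13 listed, 3 were tested and all 3 were called lower, with Gnat1 listed at 0. Astrocyte markers summed to 17.97 to 20.9 CPM with anti-miR132-3p and 33.2 to 36.6 CPM with scramble. Of the 5 listed, 2 were tested and 1 was called lower. Microglia and leukocyte markers summed to 26.7 to 29.0 CPM with anti-miR132-3p and 9.99 to 16.1 CPM with scramble, although the 1 of 12 that was tested was called lower. Endothelial markers summed to 9.86 to 11.6 CPM with anti-miR132-3p and 2.77 to 3.87 CPM with scramble. Of the 6 listed, only 1 was tested and it was called higher, with Cldn5 and Cdh5 listed at 0. Horizontal cell markers summed to 59.7 to 67.9 CPM with anti-miR132-3p and 79.4 to 85.8 CPM with scramble. Bipolar markers summed to 121 to 136 CPM with anti-miR132-3p and 105 to 127 CPM with scramble. In each of these 2 lists 2 markers were tested and 0 called, and Lhx1 and Grm6 were listed at 0. Apart from the bipolar and ganglion cell sums, whose ranges overlapped, the summed markers differed between the groups along with the SoxC genes, and their part in the results below was not tested. In such bulk samples, fewer cells of a type and less RNA per cell cannot be told apart.

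The anti-miR132-3p shRNA insert was the exact reverse complement of miR-132-3p, and its sequence is shown because it defines the perturbation. A microRNA finds its targets mainly through its seed, bases 2 to 8, which pair with a match in the 3' untranslated region of the messenger RNA. miR-212-3p, made from a neighbouring hairpin, has the same seed, and it differs from miR-132-3p at 5 of 22 positions, all outside the seed. In the lines below, capitals mark the seed in the microRNAs (RefSeq, build GRCm38.p6, chr11:75173723-75173744 and chr11:75173443-75173464, plus strand) and the match to it in the insert, and the scramble insert holds no such match.
miR-132-3p: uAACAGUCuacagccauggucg
miR-212-3p: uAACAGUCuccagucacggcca
anti-miR132-3p insert: cgaccatggctgtaGACTGTTa
scramble insert: tcgagggcgacttaaccttagg

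The annotated 3' untranslated regions (GENCODE M21) of Sox4 and Sox11 hold matches of 7 bases to this seed. They are shown because they mark where the letters would allow pairing with miR-132-3p. Shorter matches, 2 in Sox11 and 1 in Sox12, are not shown. The letters searched on the transcript strand were GACTGTTA (the 8mer), GACTGTT (the 7mer-m8) and ACTGTTA (the 7mer-A1), each match being counted once, under the longest form. Sox4 had a single 7mer-m8 in its 2780 bases, at bases 1180 to 1186. Sox11 had a 7mer-m8 at bases 5275 to 5281 of its 6957 bases and 7mer-A1 matches at bases 464 to 470 and 5401 to 5407. Sox12 had no match of 7 or 8 bases in 3143 bases, and no SoxC gene had the 8mer. Capitals mark the match.
Sox4, 7mer-m8: aagatttctgtataaGACTGTTgagcagtt
Sox11, 7mer-A1, first: ccctttagacggcacaACTGTTActctagg
Sox11, 7mer-m8: acccttgtttgaatgGACTGTTttgaaacg
Sox11, 7mer-A1, second: tagttatcagcatggcACTGTTAacaagtg

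Such matches are common in regions of this length. Among 10405 tested genes with an annotated 3' untranslated region, 23.7% held a match of 7 or 8 bases and 3.2% the 8mer. Among tested genes of like length (the shorter of the pair of regions at least 0.8 times as long as the longer), the share with a match of 7 or 8 bases was 34.6% of 1936 genes for Sox4, 59.7% of 357 for Sox11 and 37.3% of 1770 for Sox12. A match is a description of the letters in these transcripts and not a measured site.

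The comparison of anti-miR132-3p with scramble asks which transcripts differ between the sorted cells of these groups. Markers of other retinal cell types were counted in them too, so a difference is not one measured within ganglion cells alone. Sox4 and Sox11 were both lower with anti-miR132-3p, 1.41-fold for Sox11 and 1.44-fold for Sox4. Sox12 was at the edge of detection in both groups.

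Sox11, the most abundant SoxC transcript, was at 394 and 367.5 CPM in the anti-miR132-3p libraries, against 545 and 527 CPM in the scramble libraries. Both anti-miR132-3p libraries were below both scramble libraries, and the counting intervals of the single libraries did not overlap between the groups, the highest anti-miR132-3p bound being 425 CPM and the lowest scramble bound 494 CPM. The raw counts were 679 and 633 with anti-miR132-3p and 983 and 953 with scramble. The level over the anti-miR132-3p pair was 381 CPM and that over the scramble pair 536 CPM, a 1.41-fold fall (1.31 to 1.51), and edgeR's quasi-likelihood test called it lower (log2 fold change -0.49, Benjamini-Hochberg adjusted p = 2.23e-06).

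Sox4 was at 41.2 and 38.9 CPM in the anti-miR132-3p libraries, against 51.1 and 64.2 CPM in the scramble libraries. The points did not overlap between the groups, but the counting interval of the first scramble library, 41.2 to 62.6 CPM, reached into those of both anti-miR132-3p libraries. The raw counts were 71 and 67 with anti-miR132-3p and 92 and 116 with scramble. Over the pairs, Sox4 had 40.0 CPM with anti-miR132-3p and 57.6 CPM with scramble, a 1.44-fold fall (1.16 to 1.8), and edgeR's quasi-likelihood test called it lower (log2 fold change -0.52, adjusted p = 0.0232). DESeq2 did not call it (log2 fold change -0.54 ± 0.25, SE, adjusted p = 0.206), whereas it called Sox11 lower (-0.51 ± 0.08, SE, adjusted p = 1.18e-07).

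Sox12 had 8 and 6 counts in the anti-miR132-3p libraries, against 16 and 6 in the scramble libraries. The groups overlapped, since the second scramble library equalled the lower of the anti-miR132-3p counts. Over the pairs, Sox12 had 4.06 CPM with anti-miR132-3p and 6.10 CPM with scramble, a ratio of 0.666 (0.315 to 1.36). This interval holds both no difference and a fall as large as that of Sox4 or Sox11, so a change in Sox12 was not detectable at this depth. Without the first scramble library, the log2 ratio of Sox12 was 0.29, against -0.59 with all libraries.

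**Figure D1:**
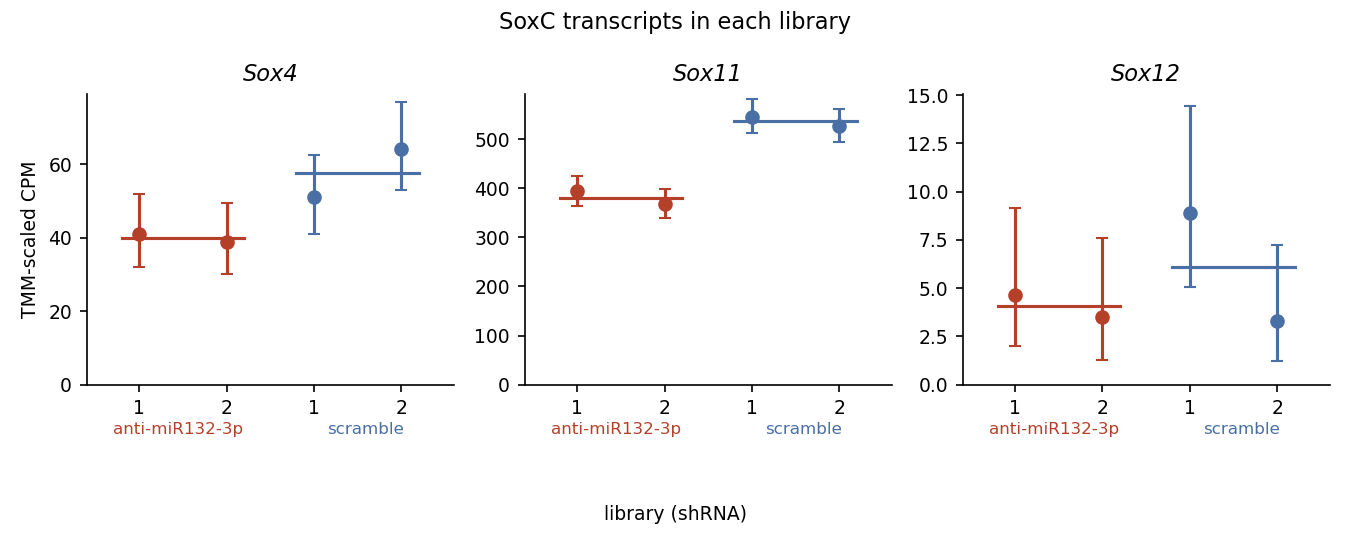
Level of each SoxC gene in TMM-scaled CPM on the y axis, by library on the x axis, with anti-miR132-3p in red and scramble in blue; points are single libraries, bars the exact 95% intervals for counting error, and horizontal lines the level over the pair. Sox11 is separated (394 and 367.5 against 545 and 527 CPM), Sox4 is separated by its points only, and Sox12 overlaps; the y axes differ in scale and start at 0.

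Leaving out any 1 of the 4 libraries ended the calls of Sox4 and Sox11, with adjusted p-values of edgeR's quasi-likelihood test from 0.19 to 0.321, and left 0 genes called in all, so that the calls of other genes named below ended too. The log2 fold change stayed negative in each case, between -0.54 and -0.44 for Sox11 and between -0.69 (without the first scramble library) and -0.36 (without the second) for Sox4.

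The fall of the SoxC genes lay in the lower part of the distribution of all genes but not at its end. Of the 11427 tested genes, 10.4% were called lower and 13.5% higher by edgeR's quasi-likelihood test, beside 2 of the 2 tested SoxC genes called lower. A log2 fold change of -0.32 or lower was seen in 16.3% of the tested genes and in both tested SoxC genes, and one of -0.58 or lower, a 1.5-fold fall, in 5.12% and in neither of them. Sox4 had a lower log2 fold change than all but 759 tested genes (6.64%), and Sox11 than all but 874 (7.65%). The median over all tested genes was -0.003 on the log2 scale.

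**Figure D2:**
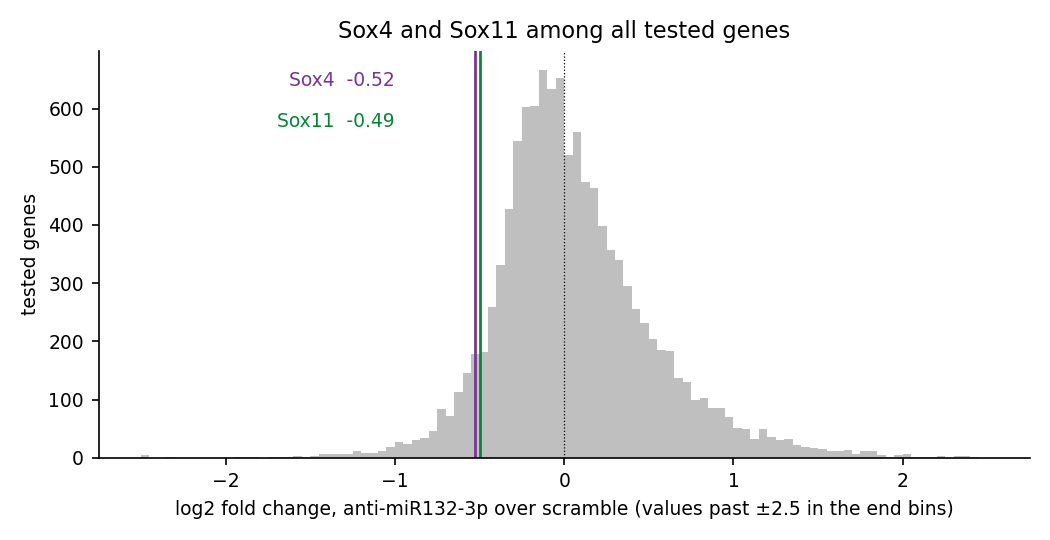
Number of tested genes (y axis) by log2 fold change of anti-miR132-3p over scramble (x axis, bins of 0.05) for all 11427 tested genes, with values past 2.5 in either direction placed in the end bins. The vertical lines mark Sox4 at -0.52 and Sox11 at -0.49, on the lower shoulder of the distribution, and the dotted line marks 0.

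The SoxC genes did not differ from each other in the size of the change beyond counting error. The log2 ratio of Sox4 minus that of Sox11 was -0.03 (-0.37 to 0.30, exact interval of the odds ratio), so a difference between them of up to about 0.37 on the log2 scale would not have been seen. The difference of Sox11 minus Sox12 was 0.09 (-0.95 to 1.18). Together the SoxC genes had 1464 counts with anti-miR132-3p and 2166 with scramble, 425 against 600 CPM, 1.41-fold lower (1.32 to 1.51).

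The makeup of the SoxC group was near the same in both groups of eyes. Sox11 held 89.6% of the summed SoxC counts with anti-miR132-3p and 89.4% with scramble, Sox4 held 9.43% and 9.6%, and Sox12 held 0.956% and 1.02%. Because longer transcripts give more reads, levels between genes were compared per length, using the longest GENCODE M21 transcript of each, which spans 8311 bases for Sox11, 4795 for Sox4 and 4453 for Sox12. Per kilobase, Sox11 was at 45.8 CPM with anti-miR132-3p and 64.5 CPM with scramble, Sox4 at 8.35 CPM with anti-miR132-3p and 12.0 CPM with scramble, and Sox12 at 0.912 CPM with anti-miR132-3p and 1.37 CPM with scramble. This order, Sox11 above Sox4 above Sox12, was the same in both groups, and the summed counts of Sox12 behind it were 14 with anti-miR132-3p and 22 with scramble. By its CPM, Sox11 lay above 97.3% of all tested genes and Sox4 above 60.0%.

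Sox4 and Sox11 are each annotated with a single exon. Of 175 single-exon protein-coding genes tested, 13 were called higher (7.43%) and 15 lower (8.57%), beside 13.5% and 10.4% of all tested genes, with a median log2 fold change of -0.06. GC content was 51.1% in the Sox4 transcript, 46.5% in Sox11 and 59.9% in Sox12. A correction of the counts for GC content and transcript length left both genes lower and called, at a log2 fold change of -0.68 for Sox4 and -0.52 for Sox11. On the opposite strand, GENCODE M21 places the long noncoding RNA Gm26735 over 2753 bases of Sox4. How the counting treated strand is not stated, and the deposited counts hold no values for Gm26735. Reads of Sox4 and of an antisense partner therefore cannot be told apart. Sox11 and Sox12 have no overlapping gene in that annotation.

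The promoters of Sox4 and Sox11 are shown because these genes were lower together (RefSeq, build GRCm38.p6, minus strand, chr13:28953650-28953949 and chr12:27342669-27342968, from 250 bases before to 50 after the start). Motifs were searched on both strands as CCAAT (the CCAAT box), GGGCGG (the GC box) and TATAAA (the TATA box). Sox4 had 4 CCAAT boxes, no GC box and no TATA box, and Sox11 had 1 CCAAT box, 2 GC boxes and no TATA box. Of all 32851 promoters of this length, 37.4% held a CCAAT box, 35.7% a GC box and 13.6% a TATA box. Capitals mark the CCAAT boxes, in either direction.
Sox4 promoter: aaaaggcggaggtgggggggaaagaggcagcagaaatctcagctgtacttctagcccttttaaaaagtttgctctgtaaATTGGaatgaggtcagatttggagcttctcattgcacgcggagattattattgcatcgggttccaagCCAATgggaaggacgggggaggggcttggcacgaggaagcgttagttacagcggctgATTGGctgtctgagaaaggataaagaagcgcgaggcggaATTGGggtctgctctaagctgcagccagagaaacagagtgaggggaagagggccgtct
Sox11 promoter: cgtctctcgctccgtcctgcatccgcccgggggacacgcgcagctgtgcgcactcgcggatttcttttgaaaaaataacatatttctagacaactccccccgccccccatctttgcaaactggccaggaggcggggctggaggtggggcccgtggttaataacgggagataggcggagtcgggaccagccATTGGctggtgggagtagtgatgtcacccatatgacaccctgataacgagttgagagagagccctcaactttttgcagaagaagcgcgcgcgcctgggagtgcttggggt

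Of 16 other Sox genes listed, 2 were tested and 1 was called. Sox5, a group D factor that lacks an activation domain of its own, was at 131 and 126 CPM with anti-miR132-3p, against 143 and 173 CPM with scramble, and was called lower (1.23-fold, 1.08 to 1.39, edgeR adjusted p = 0.0353). Both anti-miR132-3p libraries were below both scramble libraries, which lay further apart from each other. The call was lost with library totals in place of TMM factors (edgeR adjusted p = 0.0784) and with DESeq2 (adjusted p = 0.231). Sox9, a factor of Müller glia and the other of the 2 tested, had 24 and 34 counts with anti-miR132-3p against 23 and 13 with scramble, and did not pass (edgeR adjusted p = 0.0979). Sox7 had 4 and 3 counts with anti-miR132-3p and 0 in both scramble libraries. Sox9 and Sox7 are given because their values stood out and not by the rule for named genes. The neural progenitor factors Sox1, Sox2, Sox3 and Sox21 were among 9 Sox genes listed at 0 in all 4 libraries, where 3 counts would be 1.63 to 1.73 CPM. A 0 in this table need not mean absence, as Gad1 was listed at 0 while Gad2, the other enzyme of GABA synthesis, had a mean of 449 CPM.

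Genes reported as SoxC targets in neurons or other cells went both ways. Of 14 listed, 10 were tested, with 3 called higher and 3 lower by edgeR's quasi-likelihood test and a median log2 fold change of 0.14, beside the background of 13.5% higher and 10.4% lower. Among those lower were Neurod1, a proneural factor, 2.14-fold (1.52 to 3.07), Bdnf, a neurotrophin, 1.65-fold (1.3 to 2.1), and Pou4f1, a ganglion cell transcription factor also called Brn3a, 1.47-fold (1.13 to 1.92). Pou4f1 was at 27.3 and 27.9 CPM with anti-miR132-3p, against 40.5 and 40.4 CPM with scramble. Each pair counts as 1 sample, so the closeness of its libraries speaks to counting error only. DESeq2 called neither Pou4f1 (adjusted p = 0.279) nor Bdnf (adjusted p = 0.0638), which leaves Neurod1 as the only listed target it called lower.

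On the other side, Tubb3, the neuronal tubulin that Sox4 and Sox11 are reported to activate, was at 379 and 351 CPM with anti-miR132-3p, against 263 and 251 CPM with scramble. It was called higher, 1.42-fold (1.3 to 1.55), opposite in direction to Sox4 and Sox11. Nrcam and Plxna1, a cell adhesion molecule and a semaphorin receptor that SoxC factors are reported to act through when retinal axons cross the midline, were called higher 1.5-fold (1.36 to 1.66) and 1.82-fold (1.15 to 2.94). With GC content and transcript length corrected for, Plxna1 was no longer called (log2 fold change 0.46, edgeR adjusted p = 0.327), nor was it by DESeq2 (adjusted p = 0.367) or limma-voom (adjusted p = 0.0507). Map2, a microtubule-associated protein, was at 579 CPM against 546 CPM, Dcx, the doublecortin gene of newborn neurons, at 25.8 against 22.4 CPM, Arpc3, an actin nucleation subunit, at 44.4 against 35.2 CPM and Tank, a signalling adaptor, at 66.7 against 69.0 CPM, and none of these passed the test, though Arpc3 was called higher after that correction (log2 fold change 0.69). Tead2 was listed at 0 in all 4 libraries, and Pou4f2, Hes5 and Ezh2 had too few counts to be tested.

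Partners of SoxC factors in neurogenesis were mostly below the filter. Of 18 POU partners, proneural factors and Notch genes, 5 were tested, with 0 called higher and 1 lower, beside 13.5% and 10.4% of all tested genes. Neurod4, a proneural factor, was at 20.9 and 21.5 CPM with anti-miR132-3p, against 42.7 and 44.3 CPM with scramble, 2.05-fold lower (1.55 to 2.75). The Notch target Hey1 was at 56.0 CPM against 42.9 CPM and did not pass (edgeR adjusted p = 0.0997), though it did with a replicate block (0.0491).

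Of 14 genes of TGF-beta signalling, SUMO modification and other control of SoxC factors, 10 were tested, with 1 called higher and 2 lower, beside the same 13.5% and 10.4%, and a median log2 fold change of -0.15. After the correction for GC content and transcript length this median was 0.0002, against 0.033 over all tested genes. Sdcbp, which encodes syntenin-1, a protein reported to bind and stabilise human SOX4, was at 319.5 and 277.5 CPM with anti-miR132-3p, against 469 and 478 CPM with scramble, 1.59-fold lower (1.47 to 1.72). The fall was called (edgeR adjusted p = 6.5e-07). Tgfbr1, a TGF-beta receptor, was called higher 1.64-fold (1.17 to 2.31), but not by DESeq2 (adjusted p = 0.306). Smad2, a signal transducer of the pathway, was at 60.3 against 64.8 CPM, Tgfb2, a ligand, at 41.2 against 48.5 CPM and Sumo2 at 33.4 against 41.0 CPM, and none of them was called.

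Genes of axon growth and injury, among which Sox11 is often counted, also went both ways. Of 14 listed, 12 were tested, with 3 called higher and 6 lower and a median log2 fold change of -0.14, where 13.5% of all tested genes were called higher and 10.4% lower. After the correction for GC content and transcript length, 5 were called higher and 4 lower. The list median was then 0.0074, against 0.033 over all tested genes. The Krüppel-like factors Klf6, Klf7 and Klf9 were called lower 1.38-fold (1.245 to 1.52), 1.35-fold (1.20 to 1.53) and 1.31-fold (1.19 to 1.45), close in size to Sox11. Stmn2, a microtubule regulator of growing axons, was lower 1.39-fold (1.31 to 1.48), Gap43, a growth cone protein, 1.18-fold (1.13 to 1.24) and Stmn1, a tubulin-binding protein, 1.11-fold (1.05 to 1.17). With GC content and transcript length corrected for, Stmn1, which DESeq2 did not call (adjusted p = 0.088), was called higher (log2 fold change 0.13) and Gap43 was not called (0.03, edgeR adjusted p = 0.587). Called higher were Ecel1, an endopeptidase induced by nerve injury, 1.86-fold (1.68 to 2.05), the transcription factor Stat3 1.61-fold (1.40 to 1.86) and the AP-1 factor Jun 1.47-fold (1.32 to 1.63). Atf3, another factor induced by axon injury, was at 303 CPM against 331 CPM, and Sprr1a at 382 CPM against 358 CPM, and neither passed, though Sprr1a was called higher after the correction (log2 fold change 0.25).

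**Figure D3:**
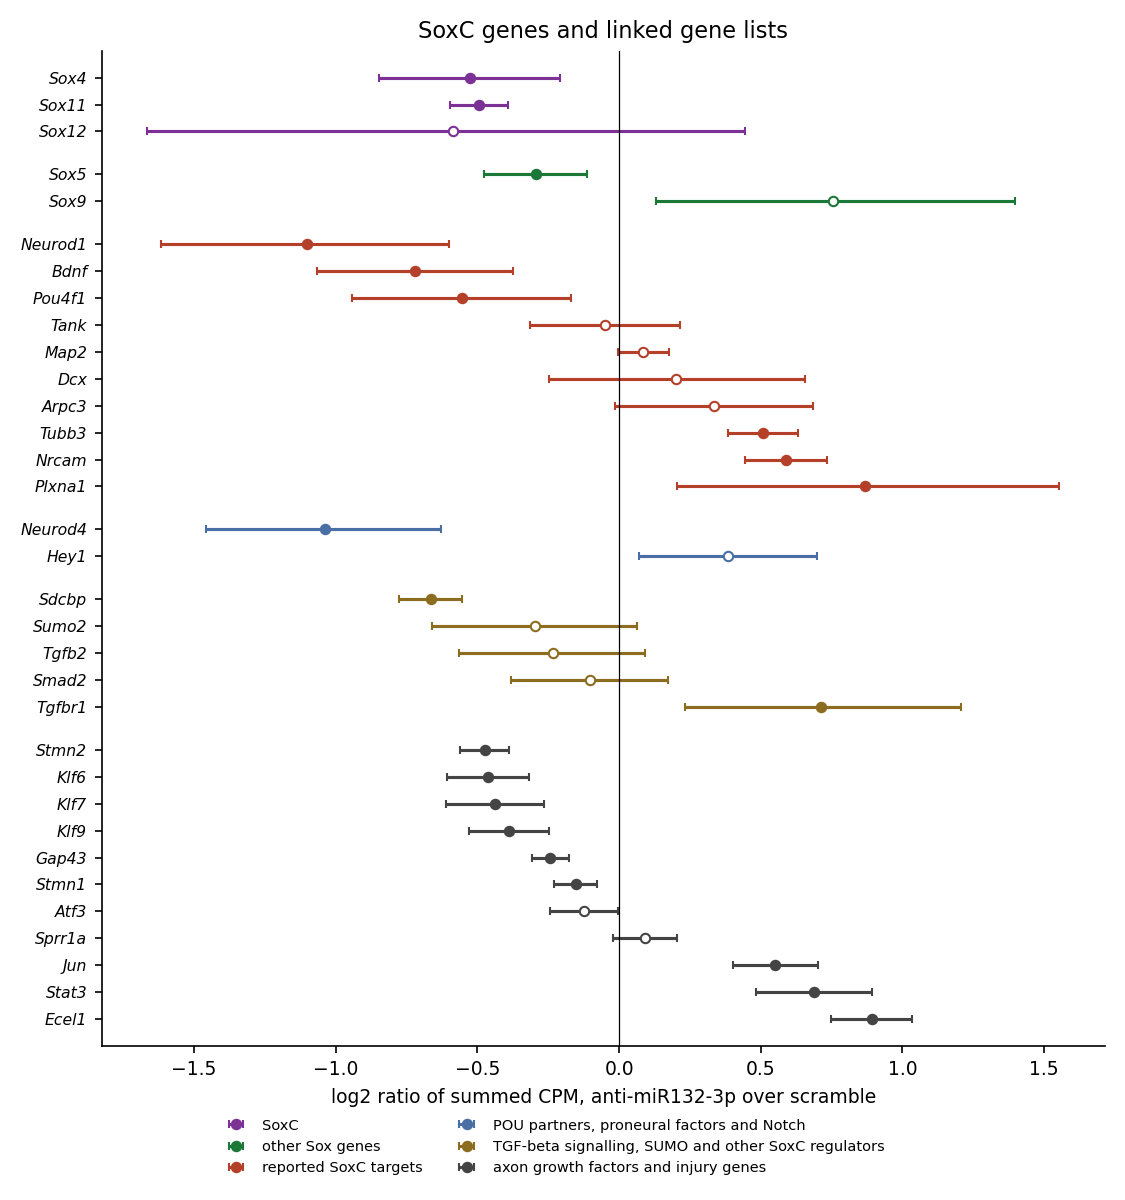
Log2 ratio of summed CPM, anti-miR132-3p over scramble, on the x axis for the SoxC genes and the named members of each list, with Sox9 added; bars are exact 95% intervals for counting error, filled points were called by edgeR's quasi-likelihood test and open points were not called or, for Sox12, not tested. Sox4, Sox11 and Sox5 lie left of 0, while Tubb3, Nrcam and Plxna1 lie right of it.

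The genes whose pattern was most like that of each SoxC gene were sought among tested genes with a mean of at least 100 CPM, by the Euclidean distance between centred values of log2(CPM + 0.5) over the 4 libraries, which amount to 2 pairs. For Sox11 they were Klhl9, an adaptor of a ubiquitin ligase (distance 0.0165), Dusp1, a phosphatase of MAP kinases (0.0308), and Srxn1, the antioxidant enzyme sulfiredoxin (0.051). For Sox4 they were the ribosomal protein gene Rpl35 (0.124), the transcription factor Ebf1 (0.135) and Fdps, an enzyme of isoprenoid synthesis (0.147). Their log2 fold changes were -0.49, -0.50 and -0.46 for the first set and -0.53, -0.44 and -0.38 for the second. These lie near those of Sox11 and Sox4 by construction, since the genes were picked by their values in the same libraries.

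**Figure D4:**
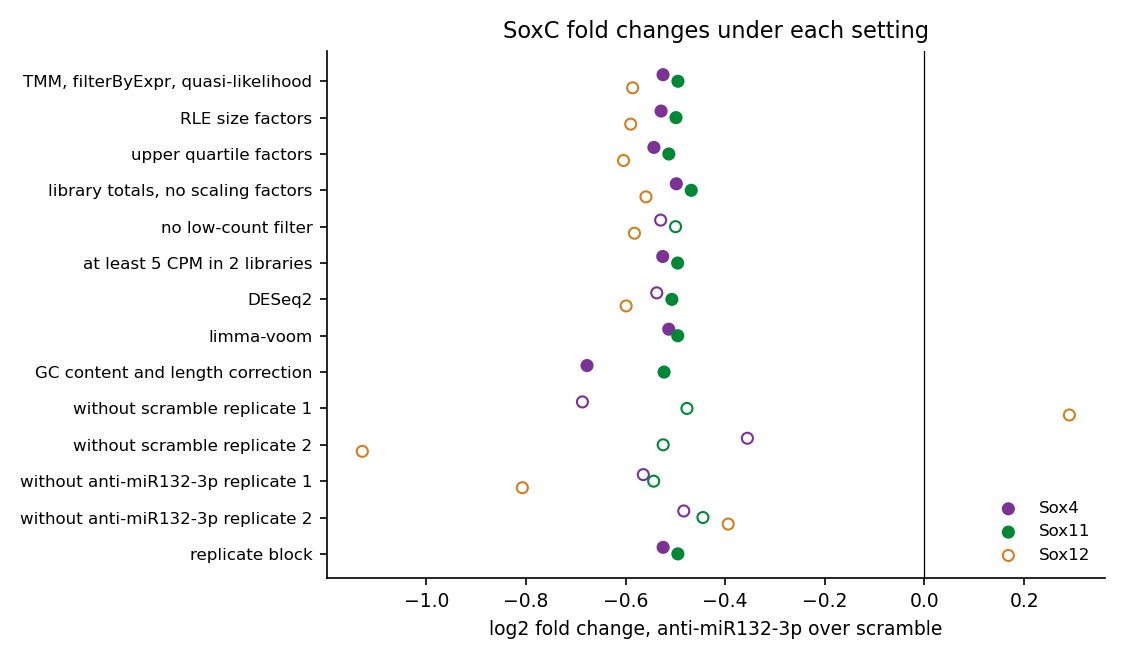
Log2 fold change of Sox4, Sox11 and Sox12, anti-miR132-3p over scramble (x axis), under each scaling, filter, test and left-out library (rows); filled points have an adjusted p under 0.05. Sox4 and Sox11 stay below 0 in each row, from -0.69 to -0.36 and from -0.54 to -0.44, whereas Sox12, in the rows that give it a value, crosses 0 without the first scramble library.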

How the data were processed

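The authors deposited whole-number counts per gene for 78334 versioned Ensembl identifiers in 4 columns. The submitters' processing notes name build GRCm39, HISAT2 2.2.1, Trimmomatic 0.39, SAMtools 1.10 and programs of the Cufflinks suite; which tool counted, with which annotation and strand rule, is not given in the sources used here. Names came from GENCODE M21, which matched 51486 identifiers; it is of an older build, and its transcripts gave lengths, GC content and 3' untranslated regions.

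Counts were tested in R 4.3.3 with edgeR 4.0.16 (filterByExpr, TMM, glmQLFit, glmQLFTest, Benjamini-Hochberg over all tested genes, threshold 0.05) and, as alternatives, limma 3.58.1 and DESeq2 1.42.0. Tested genes held 98.7% of counts. Folds are ratios of CPM of summed counts with exact Clopper-Pearson 95% intervals. An exact permutation test of 2 libraries against 2 cannot go below p = 0.333 (two-sided), so none is given. The script was tested on simulated data. Members and lists were chosen with earlier results of these data known. From each list the text names genes with a mean of at least 20 CPM, up to 8 by level, and every called gene; a few of these are not reported here. The single-exon class, promoter motifs and seed matches were described after the values were seen. The labels name pooled retinas and no separate animals behind the 2 libraries of a group.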

Additional observations from a re-analysis of the deposited data

How the results depend on the processing

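Sox4 and Sox11 were lower under every setting run. Their calls by edgeR's quasi-likelihood test held with RLE or upper quartile factors, library totals, a filter of 5 CPM in 2 libraries and the correction for GC content and length, and with limma-voom. With no low-count filter neither was called (-0.53 for Sox4, adjusted p = 0.204, and -0.50 for Sox11, adjusted p = 0.0851), and 1 gene was called higher and 2 lower, with 5192 at an unadjusted p under 0.05. DESeq2 called 539 genes higher and 351 lower and not Sox4 (-0.54). Leaving out 1 library gave 0 to 0 genes higher and 0 to 0 lower, with 2652 to 2767 at an unadjusted p under 0.05, log2 fold changes of -0.69 to -0.36 for Sox4, -0.54 to -0.44 for Sox11 and -1.13 to 0.29 for Sox12; where 1 library stood alone, its spread was taken to be that of the other group. The full set of 4 libraries left 2 residual degrees of freedom, and leaving out 1 library left fewer. The cause of the changes on leaving out a library was not tested. With a replicate block the values were -0.52 for Sox4 and -0.49 for Sox11, both called, with 1740 genes higher and 1437 lower; same-numbered libraries did not deviate together (r = 0.013 across genes), so the numbers only name libraries. After the GC and length correction the medians turned to 0.0002 for the TGF-beta and SUMO list and to 0.0074 for the axon growth list. The median over all tested genes was then 0.033, so both lists lay only a little below it. Before the correction their medians were -0.15 and -0.14, against -0.003 over all tested genes, so most of that gap was lost. Depth limits Sox12, at 6 to 16 counts per library.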
